A study of Mus musculus with 28 samples.

Results

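Mouse dendritic cells sense lipopolysaccharide (LPS), a component of the outer membrane of Gram-negative bacteria, through a small set of receptors, adaptors and kinases. The genes described here are the LPS co-receptor Cd14, the Tlr4 partner Ly96, the Toll-like receptors (Tlr), the adaptor Myd88 and the IRAK kinases (Irak1 to Irak4). Members were chosen by name: any row of the RNA or the ribosome footprint table that carries one of these names was taken, whatever its values. In all, 7 of 3147 RNA rows were members, namely Cd14, Tlr2, Tlr7, Tlr13, Myd88, Irak4 and Irak3 (listed with its older name Irak-M). The footprint table held 11 members in 6250 rows, the same 7 together with Tlr4, Tlr6, Tlr8 and Irak2. Ly96, Irak1, Tlr1, Tlr3, Tlr5 and Tlr9 were not analysed here, and Tlr4 itself had a footprint value only.

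CD14 is a membrane-anchored protein that binds LPS and hands it to the complex of TLR4 and LY96. At the plasma membrane this complex recruits MYD88, which assembles IRAK4 with other IRAK kinases and leads to activation of NF-kB and MAP kinases, while from endosomes it signals through TRIF to TBK1 and interferon regulatory factors. TLR2 recognises bacterial lipopeptides with TLR1 or TLR6, TLR7 recognises single-stranded RNA in endosomes, TLR13 recognises bacterial ribosomal RNA, and IRAK3 (IRAK-M) is known as an inhibitor of the pathway in monocytes and macrophages.

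The cells were bone marrow-derived dendritic cells of female C57BL/6J mice aged 6 to 8 weeks, grown in medium with the growth factor GM-CSF, which is known to give mixed cultures. On day 9 they received 100 ng/ml LPS (rough, ultrapure, from E. coli K12) or mock stimulation, which means no stimulus, and at time 0 all cultures passed from medium with one set of isotope-labelled amino acids to medium with another. Poly(A)-selected, strand-specific RNA was sequenced at 0 h before stimulation and at 1, 2, 4, 6, 9 and 12 h in each arm, with 2 libraries per group, 26 in all. Ribosome footprints, the short mRNA pieces protected by ribosomes, came from 2 libraries of resting cells. No knockout or other genotype was used. The labels number the libraries of a group 1 and 2 and do not say whether these came from separate mice or cultures, so every p-value rests on differences between libraries that could be technical only.

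RNA levels are in TPM, transcript abundance corrected for transcript length, so genes can be compared with each other. Each column was scaled to a fixed total over the listed rows, so every value is relative to the other listed genes, and TPM keeps no read depth. A log2 fold change is the difference of log2(TPM + 1) between group means, given with its standard error (SE). A gene was called changed when the adjusted p of the limma fit over all 3147 rows (Benjamini-Hochberg) was under 0.05. The early effect is the mean of LPS minus mock at 1 h and 2 h, and the late effect is the mean at 6, 9 and 12 h. In bulk RNA, fewer cells of a type and less RNA per cell cannot be told apart.

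The 2 libraries of a group differed most for Cd14, Tlr2 and Myd88. Replicate 1 exceeded replicate 2 in 13 of 13 groups for Cd14, Tlr2 and Myd88, with median ratios (of TPM + 1) of 2.35, 1.89 and 1.52. The same held for 9.85% of all rows, and the median ratio of Cd14 lay above that of 99.7% of rows. For Tlr7 replicate 1 was higher in 12 of 13 groups, for Tlr13 in 11, for Irak3 in 9 and for Irak4 in 4. Dendritic cell markers were present in every RNA library: Itgax, H2-Ab1, H2-Aa, Cd74 and Irf4 were the 5 of 13 listed markers with an RNA row, and none was at 0. Their summed level ran from 14061 to 21045 TPM in replicate 1 and from 7443 to 15141 TPM in replicate 2. The 6 of 10 listed macrophage and monocyte markers with a row summed to between 23439 and 57050 TPM in replicate 1 and between 7729 and 32576 TPM in replicate 2. Lyz2, with a mean of 24918 TPM, made up most of this sum, and the next highest of these markers, Cd68, had a mean of 237 TPM. The 7 of 13 listed granulocyte markers gave 1804 to 11097 TPM and 1165 to 4905 TPM. All 3 sums were higher in replicate 1 in 13 of 13 groups, and their part in the receptor levels was not tested. B and T cell and mast cell lists had no measured RNA row. Because of this split, values below are given per replicate, together with the ratio of LPS to mock within each replicate number.

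The marker sums also differed between LPS and mock. The dendritic cell sum of replicate 1 ran from 19023 to 21045 TPM under LPS and from 14061 to 18721 TPM in mock, without overlap, and that of replicate 2 from 7443 to 15141 and from 8986 to 12829 TPM. At 0 h these sums were 19866 and 9728 TPM. The 0 h sum of replicate 1 thus lay within its LPS range and above its mock range. At matched times the dendritic cell sum was higher with LPS in both replicates at 2, 6, 9 and 12 h. At 1 h and 4 h it was higher in replicate 1 and lower in replicate 2. The granulocyte sum was lower with LPS in both replicates at 4, 6, 9 and 12 h, for example 2333 against 7193 TPM and 1622 against 2492 TPM at 9 h. The macrophage and monocyte sum was lower with LPS in both replicates at 1, 2, 4 and 9 h. In that marker list Lyz2, which made up most of the sum, was not called early or late (late -0.46, adjusted p = 0.39 in limma). Within that list Fcgr1, a receptor for antibodies, rose late by 2.41 on the log2 scale (adjusted p = 1.57e-07 in limma) and Ly6c1 and Ly6c2, listed as 1 row, by 1.33, while Csf1r, the receptor for the growth factor M-CSF, fell (-1.24, adjusted p = 0.0090) and C5ar1 fell (-0.95). Of the granulocyte list S100a8 (-1.54, adjusted p = 0.011) and S100a9 (-1.42, adjusted p = 0.00093) fell late and Lcn2 rose (2.06), with the other 4 of 7 not called. Of the dendritic cell list 0 of 5 were called late, and early Irf4 rose (1.02), as did C5ar1 (2.24) of the macrophage list. The part of these changes in the members' changes was not tested.

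**Figure D1:**
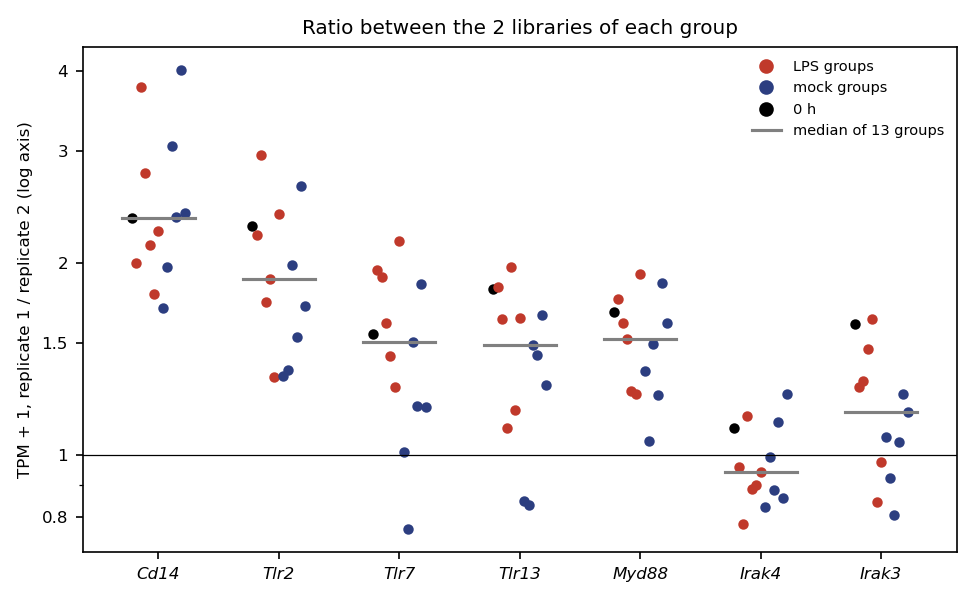
Ratio of TPM + 1 in replicate 1 to that in replicate 2 (log axis) for the 7 genes with RNA values. Each point is 1 of 13 groups (red LPS, blue mock, black 0 h) and the grey bar is the median, which is 2.35 for Cd14, 1.89 for Tlr2 and 0.94 for Irak4. All points of Cd14, Tlr2 and Myd88 lie above the line of equal levels.

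The sequences before the starts of Tlr2 and Irak4 are shown because LPS signalling ends in NF-kB, which binds a known short motif, and because their LPS libraries lay on opposite sides of the mock libraries at 2 h. The windows do not separate the genes in a way that holds under both forms of the motif searched. The windows are the 250 bases before the RefSeq start (build GRCm38.p6), printed 5′ to 3′ on the gene's strand, with matches to the NF-kB consensus (kappaB) in capitals. That consensus and TGANTCA for AP-1 were searched on both strands. The consensus replaced a looser form, in which its purine and pyrimidine positions are free, after the matches to that form had been seen, and both are given. The Tlr2 window, on the minus strand at chr3:83841609-83841858, holds a single stretch that matches kappaB, 173 to 163 bases before the start. It was counted as 3 overlapping matches, GGGGAATTCC once and GGGAATTCCC on each strand, since the latter reads the same on both. The Irak4 window, on the plus strand at chr15:94543410-94543659, holds no match to the consensus and 1 match to the looser form, 37 to 28 bases before the start.
Tlr2: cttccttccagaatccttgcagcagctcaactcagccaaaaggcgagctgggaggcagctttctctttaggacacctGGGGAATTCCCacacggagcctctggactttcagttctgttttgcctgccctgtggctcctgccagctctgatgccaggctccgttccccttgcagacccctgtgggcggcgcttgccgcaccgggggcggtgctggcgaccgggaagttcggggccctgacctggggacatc
Irak4: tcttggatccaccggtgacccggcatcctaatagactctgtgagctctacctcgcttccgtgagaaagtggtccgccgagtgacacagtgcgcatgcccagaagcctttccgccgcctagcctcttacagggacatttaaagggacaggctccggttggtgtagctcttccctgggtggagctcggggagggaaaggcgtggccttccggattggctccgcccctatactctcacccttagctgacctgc

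Of 32851 windows of this length, 7.25% hold the kappaB consensus, 45.8% its looser form and 6.75% the AP-1 letters. A match is a description of the letters and not a site in use, and a window without a match says nothing about the factor. Of the members searched, Tlr2 matched the consensus, and Tlr2, Irak3, Irak4 and Tlr6 the looser form. Irak2, Myd88, Tlr8 and Tlr13 matched neither, and no window searched for a member held the AP-1 letters. An interferon response element was also searched at first, with a match before Myd88, and is not used here. Cd14 was left out of the search by a filter on chromosome, so the bases before its start were not examined. Tlr7 and Tlr4 had no entry.

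Over the 6 times together, 4 of the 7 members differed between LPS and mock by the F test in limma, beside 57.2% of all rows. These were Tlr7 (adjusted p = 5.74e-06), Irak4 (adjusted p = 1.45e-05), Irak3 (adjusted p = 0.00028) and Cd14 (adjusted p = 0.0034). Myd88 (adjusted p = 0.053), Tlr13 (adjusted p = 0.093) and Tlr2 (adjusted p = 0.35) did not pass. With the replicate number as a block in the same fit, 7 of 7 passed, beside 80.5% of all rows. Leaving out single libraries brought Myd88 under the threshold for 11 of 26 libraries, with adjusted p from 0.0274 to 0.04997, and Tlr13 without LPS 4 h replicate 1 (adjusted p = 0.042). Without the block the share of members called was near that of all rows.

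Early after LPS 3 members rose, Cd14, Tlr7 and Irak3, and 1 fell, Irak4. Of all rows 8.39% rose and 9.72% fell early, and 18.1% changed in either direction. The median early log2 fold change was 0.86 over the 7 members and -0.10 over all rows. Late after LPS 4 members rose, Cd14, Tlr7, Irak3 and Myd88, and 2 fell, Irak4 and Tlr13, while 15.5% of all rows rose and 47.7% fell, 63.2% in either direction. The median late log2 fold change was 0.58 over the members and -0.43 over all rows.

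The late median of all rows is not near 0, so the scaling bears on every direction given here. When each column was rescaled by its median ratio to the other columns, the late median of all rows moved from -0.43 to -0.03. The count of all rows that rose and fell late then moved from 487 and 1502 to 825 and 816, and early from 264 and 306 to 313 and 197. Relative to that shift, the rescaled late log2 fold change was 2.51 for Tlr7, 2.23 for Cd14, 1.24 for Irak3, 0.99 for Myd88 and -0.45 for Irak4, all still called by limma. Tlr13 was then at -0.19 (adjusted p = 0.50 in limma), and was not called.

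At single times, 0 of 7 members were called at 1 h (4.07% of all rows) in limma, where 3 of 7 members and 572 of 3147 rows had an unadjusted p under 0.05. At 2 h 4 were called in either direction (14.4% of all rows), at 4 h also 4 (37.9%) and at 6 h 4 (41.2%). At 9 h 2 were called (40.1%) and at 12 h 3 (36.8%). With the replicate block the counts were 4 at 1 h (17.3% of all rows in that fit), 6 at 2 h (27.7%), 6 at 4 h (57.1%), 6 at 6 h (57.8%), 5 at 9 h (56.9%) and 4 at 12 h (53.2%). All of these members are named below with their values. The count fell from 4 to 2 at 2 h without LPS 2 h replicate 1, from 2 to 1 at 9 h without mock 9 h replicate 1 and from 3 to 1 at 12 h without LPS 12 h replicate 1.

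**Figure D2:**
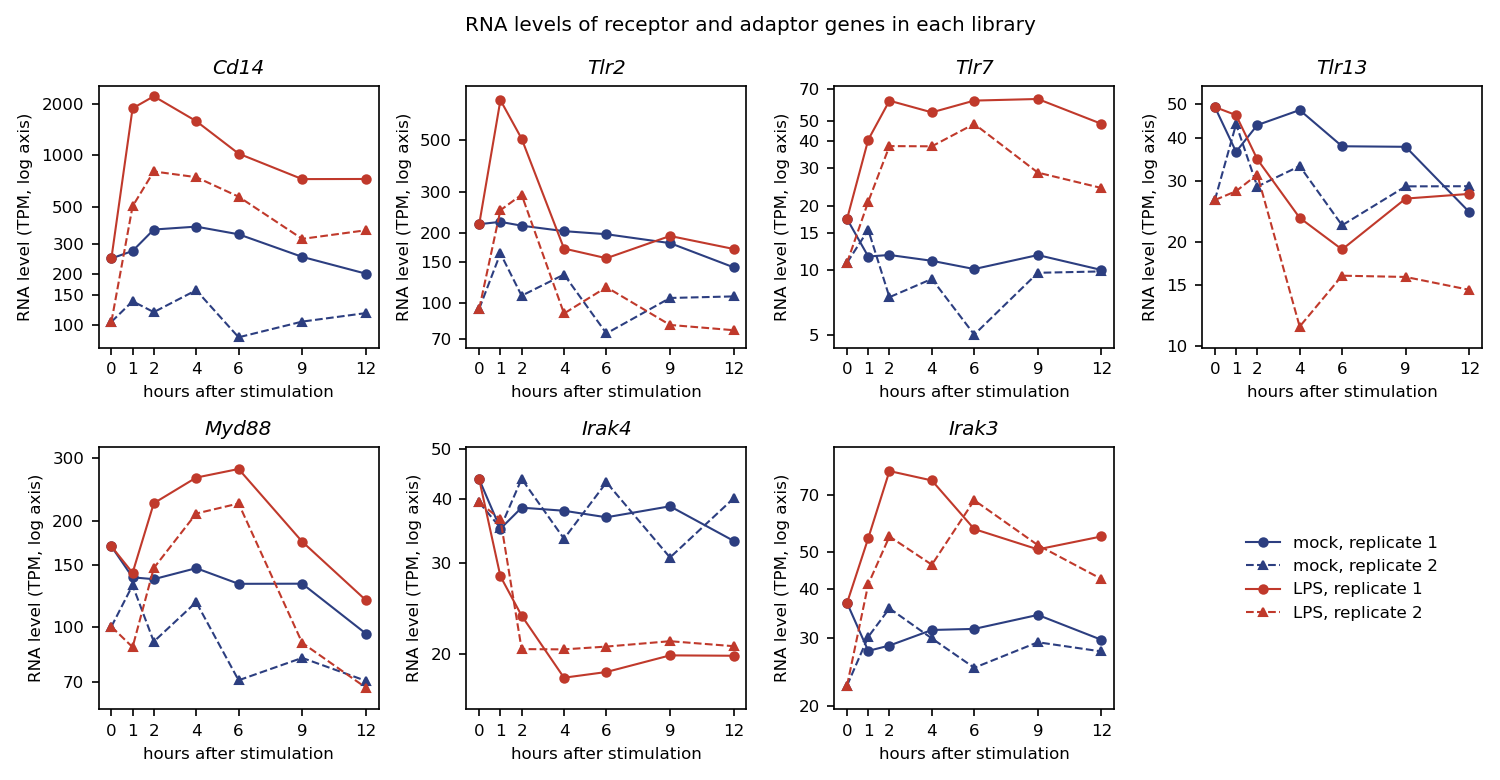
RNA level in TPM (log axis, range set per panel) of the 7 members against hours after stimulation, 1 line per replicate number (circles and solid lines replicate 1, triangles and dashed lines replicate 2; red LPS, blue mock). The 0 h value is shared by both arms. Cd14 reaches 2234 and 805 TPM at 2 h of LPS, Tlr2 is back near mock from 4 h, and Irak4 lies near 20 TPM from 4 h.

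Cd14 had the highest mean level of the members at rest and rose further with LPS. Its 0 h levels were 247 TPM in replicate 1 and 104 TPM in replicate 2. Mock levels stayed between 84.6 and 380 TPM over the 12 mock libraries. Under LPS the libraries of replicate 1 held 1897 TPM at 1 h, 2234 at 2 h, 1595 at 4 h, 1025 at 6 h, 725 at 9 h and 727 at 12 h. Those of replicate 2 held 502, 805, 745, 572, 322 and 362 TPM at the same times. Both LPS libraries lay above both mock libraries at 6 of 6 times, as did 23.5% of all rows at 1 h, 18.8% at 2 h, 15.5% at 4 h, 18.7% at 6 h, 15.6% at 9 h and 19.1% at 12 h.

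Within each replicate number Cd14 was higher with LPS than with mock at 6 of 6 times. The ratio was 6.94 and 3.63 at 1 h, 6.11 and 6.76 at 2 h, then 4.19 and 4.64 at 4 h. The 6 h values were 2.99 and 6.75, those of 9 h 2.88 and 3.08, and the last pair, at 12 h, 3.62 and 3.08. Cd14 thus rose in both windows of time. The early log2 fold change was 2.50 ± 0.60 (SE, adjusted p = 0.0074) and the late one 1.82 ± 0.49 (SE, adjusted p = 0.0038), by limma. The early effect lay above that of 99.1% of rows and the late effect above that of 96.0%.

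At single times Cd14 was called at 2 h alone, with a log2 fold change of 2.68 ± 0.84 (SE, adjusted p = 0.042 in limma). That call was lost without mock 2 h replicate 2 (1.87), without LPS 2 h replicate 1 (1.94) and without mock 12 h replicate 1 or 2 (adjusted p = 0.052 and 0.051). At 4 h the adjusted p was 0.056 and at 6 h 0.0501. The 4 h call was gained without either LPS 1 h or either mock 6 h library, and the 6 h call without any of 9 libraries, among them mock 6 h replicate 1 (3.16). With the replicate block Cd14 was called at 6 of 6 times, with adjusted p at most 3.68e-05 at the 5 times not called without it.

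Tlr2, the receptor for bacterial lipopeptides, was higher in LPS than in mock libraries at 1 h and 2 h, a difference that missed the threshold as deposited and passed it with the replicate block. At 0 h it stood at 218 and 94.8 TPM in replicates 1 and 2. At 1 h the LPS libraries held 743 and 251 TPM and the mock libraries 223 and 164 TPM. At 2 h the LPS libraries held 508 and 292 TPM and the mock libraries 215 and 108 TPM. Both LPS libraries were above both mock libraries at these 2 times, as were 23.5% and 18.8% of all rows.

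From 4 h the Tlr2 levels of LPS and mock libraries overlapped. LPS libraries held 172 and 90.4 TPM at 4 h, then 156 and 117 at 6 h. The 9 h libraries held 194 and 80.8 TPM, those of 12 h 171 and 76.7 TPM. Mock libraries ran from 74.3 to 204 TPM over these 4 times. The ratio of LPS to mock was 3.33 and 1.53 at 1 h, 2.36 and 2.71 at 2 h, then 0.84 and 0.68 at 4 h in replicates 1 and 2.

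The early log2 fold change of Tlr2 was 1.25 ± 0.45 (SE), which missed the threshold in limma (adjusted p = 0.063). It passed with the replicate block (adjusted p = 2.68e-05), with median-ratio rescaling (adjusted p = 0.044) and without LPS 1 h replicate 2 (1.64, adjusted p = 0.030). The late value was -0.03 ± 0.37 (SE) and not called. The difference of late and early was -1.28 ± 0.58 (SE, adjusted p = 0.11 in limma), with adjusted p = 0.00018 under the block and 0.042 without LPS 1 h replicate 2.

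Tlr7, the endosomal receptor for single-stranded RNA, had the lowest mean RNA level of the 7 in resting cells and the highest late log2 fold change. At 0 h it stood at 17.4 and 10.8 TPM, and mock libraries ran from 5.00 to 15.4 TPM. Under LPS replicate 1 held 40.7 TPM at 1 h, 62.0 at 2 h, 54.6 at 4 h, 62.0 at 6 h, 63.1 at 9 h and 48.3 at 12 h. Replicate 2 held 20.9, 38.0, 37.9, 48.3, 28.6 and 24.2 TPM at those times. Both LPS libraries exceeded both mock libraries at 6 of 6 times. Of all rows, 15.5% (at 4 h) to 23.5% (at 1 h) did so at a single time. The share of rows that did so at all 6 times was not counted.

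The ratio of LPS to mock for Tlr7 was 3.51 and 1.35 at 1 h, 5.26 and 5.08 at 2 h, then 6.12 and 9.64 at 6 h. It was 4.82 and 2.45 at 12 h. The early log2 fold change was 1.66 ± 0.31 (SE, adjusted p = 0.0012) and the late one 2.12 ± 0.25 (SE, adjusted p = 1.85e-06), by limma. Tlr7 was called at each time from 2 h to 12 h, and at 1 h with the block alone (adjusted p = 0.018). The 12 h call was lost without LPS 12 h replicate 1 (1.204, adjusted p = 0.093).

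Tlr13, the receptor for bacterial ribosomal RNA, was lower in LPS libraries in the middle of the course. Its 0 h levels were 49.0 and 26.4 TPM. At 4 h the LPS libraries held 23.5 and 11.4 TPM and the mock libraries 48.1 and 33.1 TPM. At 6 h the values were 19.02 and 15.98 TPM against 37.8 and 22.3 TPM, and at 9 h 26.7 and 15.8 TPM against 37.6 and 28.9 TPM. The libraries of the arms did not overlap at these 3 times, with LPS lower, as for 58.2%, 50.4% and 47.9% of all rows.

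The early log2 fold change of Tlr13 was -0.12 ± 0.29 (SE), not called. The late one was -0.58 ± 0.24 (SE, adjusted p = 0.041 in limma), and 40.2% of rows had a lower late value. At 4 h it was -1.23 ± 0.41 (SE, adjusted p = 0.026 in limma). The 4 h call was lost without mock 4 h replicate 1 (-0.97), without LPS 4 h replicate 2 (-0.74), on rescaling (-0.80) and on quantile normalization (-0.52). The late call was lost on quantile normalization (-0.00097) as on rescaling, and without any of 8 libraries of the late times (-0.44 to -0.62). These were LPS 6 h replicates 1 and 2, mock 6 h replicate 1, mock 9 h replicate 1, LPS 9 h replicate 2, mock 12 h replicates 1 and 2, and LPS 12 h replicate 2. With the block, 6 h and 9 h were called too (adjusted p = 0.034 and 0.049).

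Myd88, the adaptor shared by most Toll-like receptors, reached its highest LPS level at 6 h and overlapped with mock at 12 h. At 0 h it stood at 169 and 100.4 TPM. LPS libraries held 142 and 87.9 TPM at 1 h, 224 and 147 at 2 h, then 265 and 209.5 at 4 h. They held 280 and 224 TPM at 6 h, 174 and 90.4 at 9 h, then 119 and 67.5 at 12 h. Mock libraries ran from 70.6 to 147 TPM.

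Both LPS libraries of Myd88 were above both mock libraries at 2, 4 and 6 h, as were 18.8%, 15.5% and 18.7% of all rows. The arms overlapped at 1, 9 and 12 h. The ratio of LPS to mock was 1.64 and 1.61 at 2 h, 1.80 and 1.78 at 4 h, then 2.11 and 3.16 at 6 h. At 6 h the log2 fold change was 1.36 ± 0.41 (SE, adjusted p = 0.014 in limma). This call was lost without mock 6 h replicate 2 (0.91) and without LPS 6 h replicate 1 (1.197). At 2 h and 4 h the values were 0.70 and 0.84, called with the block (adjusted p = 0.010 and 0.0012) and not without it.

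The late log2 fold change of Myd88 was 0.58 ± 0.24 (SE, adjusted p = 0.042 in limma) and the early one 0.21 ± 0.29 (SE, adjusted p = 0.67). The late call was lost without any of 8 libraries, with values from 0.43 to 0.58 and adjusted p from 0.0504 to 0.14. These were mock 1 h replicates 1 and 2, mock 6 h replicate 2, LPS 6 h replicate 1, mock 9 h replicate 2, LPS 9 h replicate 1, mock 12 h replicate 2 and LPS 12 h replicate 1.

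Irak4, the kinase that starts the cascade downstream of MYD88, fell and was the member whose replicates lay closest together. Its 0 h levels were 43.6 and 39.4 TPM, and mock libraries ran from 30.8 to 43.7 TPM. LPS libraries held 28.3 and 36.5 TPM at 1 h and 23.8 and 20.5 TPM at 2 h. From 4 h on the level stayed near 20 TPM, with 18.0 and 20.5 TPM at 4 h, then 18.5 and 20.7 at 6 h. The 9 h libraries held 19.9 and 21.2 TPM, those of 12 h 19.9 and 20.7 TPM. From 2 h both LPS libraries were below both mock libraries at 5 of 5 times, as were 35.4% of all rows at 2 h, 58.2% at 4 h, 50.4% at 6 h, 47.9% at 9 h and 49.3% at 12 h.

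The ratio of LPS to mock for Irak4 was 0.62 and 0.47 at 2 h, 0.48 and 0.61 at 4 h, then 0.50 and 0.48 at 6 h. The early log2 fold change was -0.49 ± 0.13 (SE, adjusted p = 0.014) and the late one -0.84 ± 0.11 (SE, adjusted p = 3.1e-06), by limma. The early call was lost without mock 2 h replicate 2 (-0.45) or LPS 2 h replicate 2 (-0.44). A fall of this size was common late, since 26.4% of rows had a lower late value.

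On rescaling the late fall of Irak4 was -0.45 (adjusted p = 0.0015 in limma) and on quantile normalization -0.32 (adjusted p = 0.016). Single times were called at 2, 4, 6, 9 and 12 h as deposited. On rescaling the calls at 4, 9 and 12 h were lost (-0.42, -0.31 and -0.46), and on quantile normalization those at 4, 6, 9 and 12 h (-0.18, -0.43, -0.17 and -0.36). The 9 h call was also lost without mock 9 h replicate 1 (-0.56).

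Irak3, which encodes the inhibitory kinase IRAK-M, rose and stayed above mock to 12 h. At 0 h it stood at 36.9 and 22.6 TPM, and mock libraries ran from 25.1 to 35.8 TPM. LPS libraries held 54.2 and 41.3 TPM at 1 h, 80.8 and 54.8 at 2 h, then 76.4 and 46.3 at 4 h. They held 57.3 and 67.9 TPM at 6 h, 50.8 and 52.0 at 9 h, then 54.8 and 42.6 at 12 h. Both LPS libraries lay above both mock libraries at 6 of 6 times, where 15.5% (at 4 h) to 23.5% (at 1 h) of all rows did so at a single time.

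The ratio of LPS to mock for Irak3 was 2.82 and 1.53 at 2 h, then 1.81 and 2.70 at 6 h. By limma, the early log2 fold change was 0.86 ± 0.19 (SE, adjusted p = 0.0046) and the late one 0.84 ± 0.16 (SE, adjusted p = 0.00018). The late effect lay above that of 90.4% of rows. Calls at single times were made at 2, 4, 6 and 12 h.

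Several of these single-time calls for Irak3 were lost when 1 library was left out. The 2 h call was lost without mock 2 h replicate 1 (0.88) or LPS 2 h replicate 1 (0.76), and the 4 h call without mock 4 h replicate 2 (0.90) or LPS 4 h replicate 1 (0.58). The 12 h call was lost without any of 12 libraries, with values from 0.55 to 0.91. These were both libraries each of mock 1, 4, 9 and 12 h and of LPS 6 and 12 h. Where the library left out belonged to another time, the 12 h value itself stayed at 0.73. At 1 h (0.69) and 9 h (0.68) Irak3 was called with the block (adjusted p = 0.048 and 0.019). The 9 h call was also gained without either 0 h library or either LPS 4 h library, and on rescaling (1.10).

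**Figure D3:**
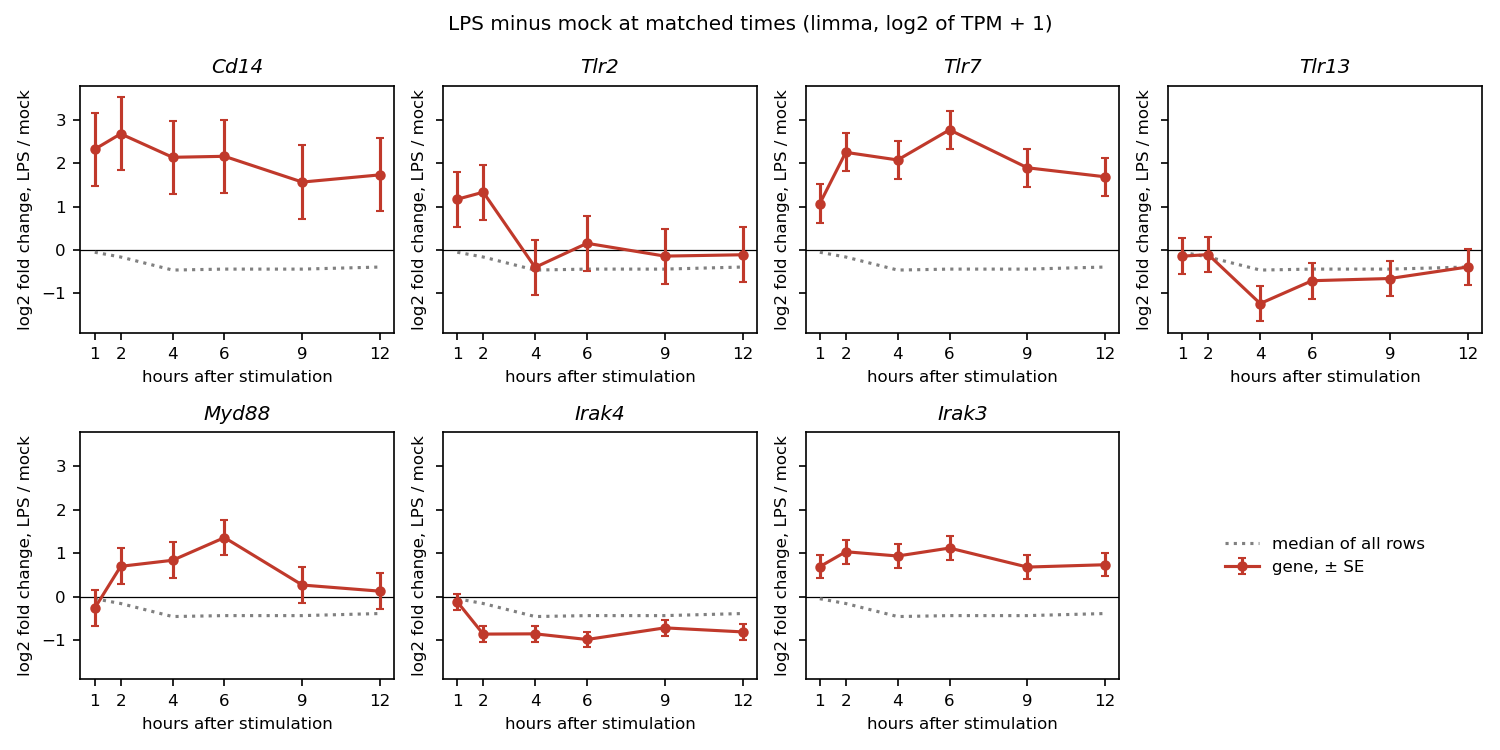
Log2 fold change of LPS over mock (limma on log2(TPM + 1)) against hours after stimulation for the 7 members, points with standard errors, and the median of all 3147 rows as a dotted line. Tlr7 peaks at 2.77 at 6 h, Tlr2 lies at 1.33 at 2 h and -0.40 at 4 h, and Irak4 lies at -0.72 or below from 2 h, with the dotted line near -0.4 from 4 h.

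No member was called for a difference between the late and the early effect (0 of 7 in limma, beside 30.4% of all rows). At an unadjusted p under 0.05, 1 of 7 members and 1279 of 3147 rows passed. The values ran from -1.28 for Tlr2 and -0.68 for Cd14 to 0.37 for Myd88 and 0.46 for Tlr7. With the replicate block Cd14 (adjusted p = 0.018) and Tlr2 (adjusted p = 0.00018) were called lower late than early, beside 49.1% of all rows in either direction. With the block and rescaling together, a setting chosen after seeing the data, 3 were called, Tlr2 (-0.96), Myd88 (0.69) and Tlr7 (0.77), beside 38.9% of all rows.

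The order of the members by TPM changed under LPS. At 0 h Cd14 had 176 ± 101 TPM (SD, n = 2), Tlr2 157 ± 87.5, Myd88 135 ± 48.7, Irak4 41.5 ± 3.0, Tlr13 37.7 ± 15.99, Irak3 29.8 ± 10.1 and Tlr7 14.1 ± 4.6. The 0 h libraries of Cd14, Tlr2 and Myd88 overlapped, as did those of Tlr13 with Irak4 and with Irak3, while both Irak4 libraries lay above both Irak3 libraries. At 6 h of LPS Cd14 stood at 798 ± 321 TPM (SD, n = 2), Myd88 at 252 ± 39.8, Tlr2 at 137 ± 27.4 and Irak3 at 62.6 ± 7.6. Tlr7 followed with 55.1 ± 9.7, Irak4 with 19.6 ± 1.6 and Tlr13 with 17.5 ± 2.2 TPM. Tlr7 thus moved from the lowest place at rest to above Irak4 and Tlr13, and at 6 h its lowest library (48.3 TPM) was above the highest of those genes (20.7 TPM).

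Without stimulus no member passed the test. Over the 6 mock times against 0 h, 0 of 7 members were called by the F test in limma, as were 0% of all rows. At an unadjusted p under 0.05 this was 0 of 7 members and 35 of 3147 rows. The replicate block also called 0 of 7. The mock group means of Tlr7 ran from 7.56 to 13.5 TPM against 14.1 TPM at 0 h, and those of Irak4 from 34.8 to 41.1 TPM against 41.5 TPM. A p over the threshold does not show that nothing changed in mock, and with 2 libraries a group small changes could not be seen.

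The rows whose 13 RNA group means of log2(TPM + 1) followed each member most closely are a description of these libraries, since all groups share the same 26 columns. Cd14 was most like Nfkb1 (Pearson r = 0.98 over 13 groups), which encodes an NF-kB subunit, then Mtmr14 and Slc2a6. Tlr7 was most like Tank (r = 0.98), which encodes a TBK1-binding adaptor, then Rab8b and F10. Irak3 was followed by Marcksl1 (r = 0.99), Ifih1, a cytosolic RNA sensor, and Sbds. For Tlr2 the row naming AK171687 and Bcl10, a signalling adaptor, came first (r = 0.96), then Etf1 and Arhgap31. Myd88 was most like Dr1 (r = 0.97), Atad1 and the row of Acot9 and Acot10. Irak4 was most like Smarcd2 (r = 0.99), Sae1 and Tsnax, and Tlr13 most like Pacsin2 (r = 0.97), Stk24 and Dcaf7. Among members, Tlr7 and Irak3 had r = 0.97, Cd14 and Irak3 r = 0.95, and Tlr7 and Irak4 r = -0.93.

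Ribosome footprints of resting cells gave values for 11 members and the only ones for Tlr4. The footprint values were taken as TPM from their column sums, and correction for length was not stated for this table, so their order across genes is only a description. Cd14 had 197 and 200 TPM in the 2 libraries, Tlr2 130 and 141, and Myd88 91.0 and 97.3. Tlr4, the LPS receptor itself, had 33.5 and 43.7 TPM. Tlr8, a relative of Tlr7, had 31.9 and 42.8, Tlr13 30.4 and 37.9, and Irak2, a kinase activated by IRAK4, 32.7 and 31.3.

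Below these, Irak4 had 29.4 and 31.1, Irak3 20.1 and 21.3, Tlr7 14.3 and 16.1, and Tlr6, a partner of TLR2, 5.53 and 5.75 TPM. Neighbours from Tlr4 through Tlr8, Tlr13 and Irak2 overlapped between libraries, while the other neighbours in the order did not. Cd14 lay above 88.8% of the 6250 footprint rows, Tlr4 above 58.6% and Tlr6 above 4.66%.

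**Figure D4:**
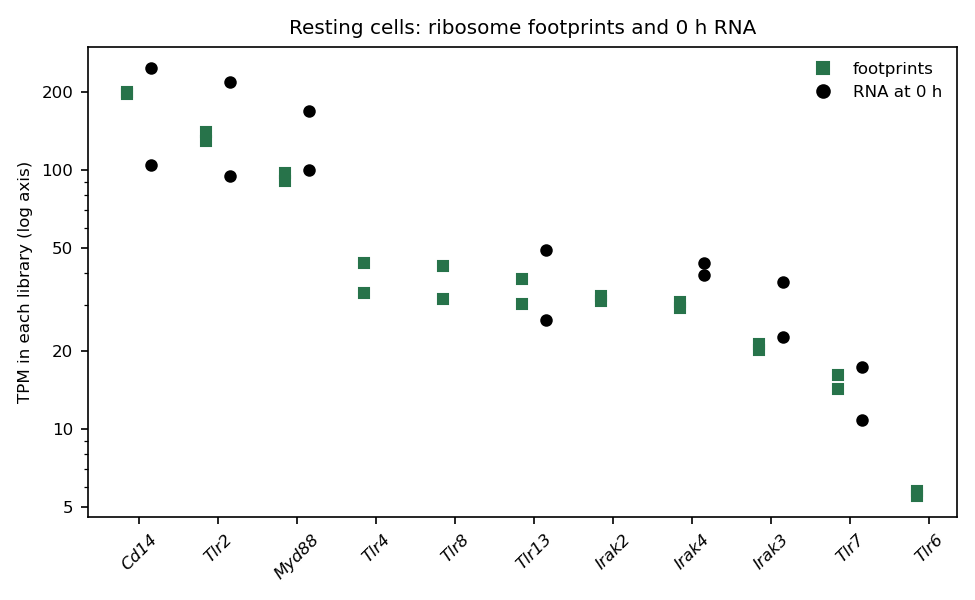
Level in resting cells (TPM, log axis) of 11 members, each point 1 library, ribosome footprints as green squares and RNA at 0 h as black circles. Cd14 leads in both, Tlr4, Tlr8, Irak2 and Tlr6 have footprints only, and the 2 footprint libraries lie closer together than the 2 RNA libraries for Cd14 (197 and 200 against 247 and 104 TPM).

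Footprints were set against 0 h RNA over the 2739 shared rows, each library centred on its median row. Tlr7 was the 1 of 7 members called, with a log2 difference of 0.97 ± 0.27 (SE, adjusted p = 0.047 in limma), while 26.7% of shared rows were called in either direction. Cd14 had 1.14 ± 0.39 (SE, adjusted p = 0.073), above 89.9% of shared rows, and passed with the replicate block (adjusted p = 0.0061), which called 37.4% of shared rows, and without either 0 h library. The other 5 ran from 0.37 for Myd88 and Irak3 to 0.75 for Tlr13, and without centring all 5 were below 0, from -0.47 for Myd88 to -0.085 for Tlr13. The Tlr7 call was lost without either footprint library (1.02 and 0.91), with a pseudocount of 0.1 (0.99) and without centring (0.13). Without 0 h replicate 1, 7 of 7 members and 75.0% of shared rows were called, and without 0 h replicate 2, 3 members and 58.3%. Leaving out a footprint library gave 0 of 7 members, beside 8.14% of shared rows without replicate 1 and 8.29% without replicate 2. Members and all rows thus changed together with the library left out.

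Other genes of the pathway were taken from a list of 77 names chosen from general knowledge, of which 39 had an RNA row. Early, 11 of 39 rose and 6 fell, beside 8.39% and 9.72% of all rows. Late, 16 rose and 8 fell, beside 15.5% and 47.7% of all rows. The early and late medians were 0.11 and 0.12 on the log2 scale (all rows -0.10 and -0.43). By the F test 24 of 39 were called, beside 57.2% of all rows. On rescaling, 20 rose and 6 fell late, beside 825 and 816 of all 3147 rows.

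Most genes of the IKK kinase complex and NF-kB subunits rose. Of 7 measured, 6 rose late and 0 fell in limma (15.5% and 47.7% of all rows). Early, 5 rose and 0 fell (8.39% and 9.72% of all rows). The late log2 fold change was 2.00 ± 0.20 (SE) for Nfkb2, 1.70 ± 0.40 for Rel and 1.59 ± 0.15 for Nfkb1. Rel had 2.91 early, the highest early value in the list.

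Of the TBK1 and IRF genes, 3 of 5 measured rose late and 0 fell, beside 15.5% and 47.7% of all rows. Early, 2 rose and 1 fell, beside 8.39% and 9.72% of all rows. The gene that fell early was Irf5 (-0.43, adjusted p = 0.0066 in limma). Late values follow. Tank had 2.16 ± 0.20 (SE), Ikbke, an IKK-related kinase, 1.63 ± 0.12, and Tbk1, the kinase of interferon regulatory factors, 1.27 ± 0.24. Among 14 adaptors and kinases 3 rose and 4 fell late, beside the same 15.5% and 47.7% of all rows. Map2k1, a kinase of the ERK cascade, had 1.72 ± 0.24, while Mapk14, which encodes p38 alpha, had -1.41 ± 0.16 and Mapk3, which encodes ERK1, -1.03 ± 0.14.

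Negative regulators moved in both directions, 3 up and 3 down late among 6 measured. Of all rows 15.5% rose and 47.7% fell late. Trim30a rose (3.11 ± 0.32, SE) and Usp25 rose (1.95 ± 0.12), while the adaptor Dok2 fell (-2.97 ± 0.11). Among 7 accessory and trafficking genes 1 rose and 1 fell late: Cd180, a relative of TLR4, had 1.35 ± 0.26 (SE) and Cnpy3, a chaperone of Toll-like receptors, -0.94 ± 0.18. Hsp90b1, another chaperone of these receptors, had -0.50 ± 0.38 (adjusted p = 0.26 in limma), and Tollip, an adaptor that dampens signalling, -0.17 ± 0.11 (adjusted p = 0.17).

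**Figure D5:**
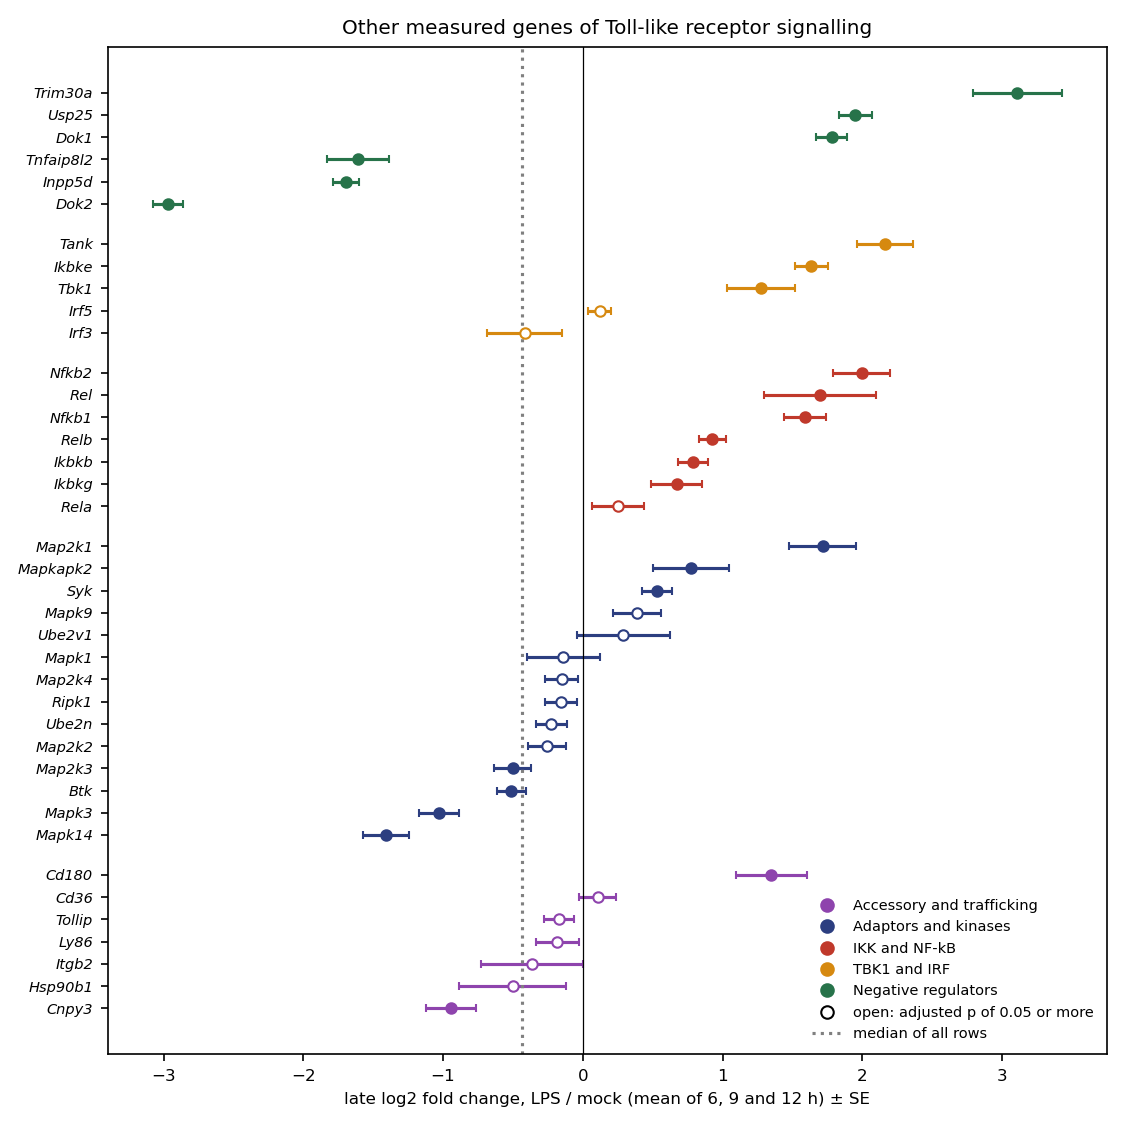
Late log2 fold change of LPS over mock (mean of 6, 9 and 12 h, ± SE) of 39 other measured genes of the pathway, grouped by role. Filled points passed an adjusted p of 0.05 in limma, open points did not, and the dotted line is the median of all rows (-0.43). The IKK and NF-kB genes lie between 0.25 and 2.00, and the negative regulators between -2.97 and 3.11.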

How the data were processed

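RNA and footprint values were used as the authors deposited them, in TPM. All RNA columns had the same total over the listed rows, as TPM has, and the footprint values were taken as TPM from the same total. The submitters' processing notes name Bowtie 0.12.7, RSEM 1.2.3, Bowtie2, TopHat2 and build mm9, and do not give the role of each. Another version string for RSEM was left out of this list. How the listed rows were chosen is not given in the sources used here. The 2 repeated 0 h columns of the other arm were dropped. The 4 h samples are described with hour 5 in 1 label field, while titles, time fields and the table say 4.

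All 3147 rows passed a minimum of 1 TPM in 2 libraries. The test was limma 3.58.1 (R 4.3.3) on log2(TPM + 1), with 13 groups, 13 residual degrees of freedom, a variance trend and Benjamini-Hochberg adjustment over all rows. It was tested on simulated data in which all libraries varied independently. Same-numbered libraries here deviated together, as given below, so that run does not show how the test behaves on them. Levels per group are mean ± SD. TPM keeps no depth, so no counting error could be given.

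Same-numbered LPS and mock libraries deviated together from their group means (correlations of 0.51, 0.68, 0.23, 0.65, 0.68 and 0.53 at 1, 2, 4, 6, 9 and 12 h). This met the rule for pairs, from the data and not from the labels. The values reported come from the fit without a block, as planned, and those with the replicate number as a block are given where they change a call.

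Members, pathway genes and marker lists were chosen with earlier results of these data known. Named beyond the members were up to 3 pathway genes per role with the largest late change among those past the F test, some fixed adaptors and chaperones, and the 3 rows most like each member. Promoter windows are from RefSeq (GRCm38.p6), and those of 8 of 11 members were searched. Python 3.11.15 with matplotlib 3.10.9 made the plots.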

Additional observations from a re-analysis of the deposited data

Results flagged for a closer look

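As deposited, Tlr2 was the 1 member whose replicates both lay above mock of their own number at some times and both below it at another. The labels do not pair the numbers, and the share of all rows with this pattern was not counted. LPS minus mock was 1.17 at 1 h and 1.33 at 2 h on the log2 scale, with both replicates higher under LPS. At 4 h it was -0.40, with both replicates lower within their own number (ratios of 0.84 and 0.68). The median of all rows at 4 h was -0.46, and 53.4% of rows had a lower value than Tlr2. The difference between these single times was not tested, and the arms overlapped at 4 h. The 4 h value was above 0 on median-ratio rescaling (0.053) and without LPS 4 h replicate 2 (0.061), so its direction was not stable.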

How the results depend on the processing

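The counts of members called early (4) and late (6) stayed within 1.5 times under each alternative run, and no member was called in the mock course under any. The replicate block called 7 of 7 members over the time course, 2 for late minus early and 2 for footprints. Beside the calls named above it changed no other call. The block with median-ratio rescaling, added after seeing the data, gave 3 for late minus early. Leaving out single libraries gave 0 to 1 for late minus early, and 0 to 7 for footprints; in these fits the lone library of a group was assumed to vary like the other groups. For footprints, a pseudocount of 0.1 and no centring gave 0 each. Without centring the sign turned for Irak3 (-0.46), Irak4 (-0.44), Myd88 (-0.47), Tlr13 (-0.085) and Tlr2 (-0.090).

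Values near 0 changed sign. Tlr2 at 4 h became 0.053 on rescaling, with or without the block, and ran from -0.86 to 0.061 over single libraries left out. Late Tlr2 became 0.37 on rescaling (called with the block) and 0.090 on quantile normalization, and ran from -0.26 to 0.20. Early Tlr13 ran from -0.30 to 0.055. For LPS over mock at single times, Tlr2 as fitted was 0.16 at 6 h (-0.54 to 0.86 over single libraries left out), -0.14 at 9 h (-0.77 to 0.49) and -0.11 at 12 h (-0.68 to 0.47). Rescaling, with or without the block, gave 0.29 for 9 h, then 0.26 for 12 h, where quantile normalization gave 0.039. Tlr13 was -0.14 at 1 h (-0.50 to 0.21), -0.10 at 2 h (-0.39 to 0.18) and -0.39 at 12 h (-0.83 to 0.048). It was 0.040 at 2 h on rescaling, with or without the block, and on quantile normalization 0.088 at 2 h and 0.18 at 12 h. Myd88 was -0.27 at 1 h (-0.61 to 0.079), 0.27 at 9 h (-0.21 to 0.74) and 0.12 at 12 h (-0.28 to 0.53), and with block and rescaling together it was called at 9 h (0.69) and 12 h (0.49). Irak4 at 1 h was -0.12 (-0.30 to 0.056). For late minus early, Irak3 was -0.02 (-0.16 to 0.12), 0.30 on rescaling with or without the block and 0.27 on quantile normalization, which also gave 0.10 for Irak4 and 0.038 for Tlr13 (as fitted -0.35 and -0.46). The cause of these changes was not tested. With 2 libraries a group and no depth, precision rests on the spread between libraries alone.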

Other observations

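Footprints in resting cells also gave levels for 19 genes of the pathway list that have no RNA row here, among 58 listed genes with a footprint value. Those named below were chosen after their values were seen, and they are values of 2 libraries with no comparison. Unc93b1, the chaperone that carries nucleic acid-sensing Toll-like receptors to endosomes, had 326 and 330 TPM. Nfkbia, the inhibitor that holds NF-kB in the cytoplasm, had 258 and 239 TPM, and the phosphatase gene Ptpn6 had 148 and 144 TPM. Of the adaptors of the TRIF branch, Ticam2, which encodes TRAM, had 34.6 and 32.9 TPM and Ticam1, which encodes TRIF, 5.93 and 6.89 TPM. Map3k7, which encodes the kinase TAK1, had 7.98 and 9.14 TPM and Chuk, an IKK kinase subunit, 7.31 and 10.3 TPM. The negative regulator Tnfaip3, which encodes the ubiquitin-editing protein A20, had 19.9 and 20.3 TPM.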
